A study of Danio rerio with 34 samples.

Results

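The heat shock and protein folding genes described here are 9 zebrafish genes chosen by name: hspd1, hspe1, hspa9, hspa5, hsp90b1, hspa8, hsp90ab1, serpinh1a and serpinh1b. The rule uses no threshold on a measured value. Earlier results of these data were known when the genes were chosen, among them the rise of serpinh1a in morphants. RefSeq holds 12 transcripts of these genes in the deposited tables, of which 10 were listed in at least 1 RNA-seq library and 9, from 8 genes, were abundant enough to be tested, among 9945 tested and 13856 listed transcripts in all.

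Chaperones bind unfolded proteins and use rounds of ATP binding and hydrolysis, or simple holding, to let them fold without clumping. In mitochondria, hspa9 (mortalin, an HSP70) pulls proteins in through the import pore, and hspd1 (HSP60) with its lid hspe1 (HSP10) folds them in a closed chamber. In the endoplasmic reticulum, hspa5 (BiP, an HSP70) and hsp90b1 (GRP94, an HSP90) handle secreted and membrane proteins, and both are classic targets of the unfolded protein response. In the cytosol, hspa8 (HSC70) and hsp90ab1 (HSP90 beta) are the constitutive HSP70 and HSP90, and serpinh1a and serpinh1b encode HSP47-type chaperones of the endoplasmic reticulum that bind procollagen. The early embryo starts with RNA loaded by the mother, clears much of it, and has turned on its own genome by the 4 hpf sphere stage (hpf, hours post-fertilization).

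The study compared embryos injected with a morpholino oligonucleotide against elavl1a, which encodes an RNA-binding protein of the Hu family, with control embryos, all of the AB strain. RNA-seq libraries came from elavl1a morphants at 4 and 6 hpf and from controls at 2, 4 and 6 hpf, with 2 libraries in each of the 5 groups. The labels call the controls normal embryos, and the study's methods also list a control morpholino. Which embryos received it is not given in the labels, so effects of injection and of the elavl1a sequence cannot be told apart here. The icSHAPE profiles, in which the reagent NAI-N3 marks flexible nucleotides of RNA inside living embryos, came from morphants at 4 and 6 hpf and from wild-type embryos at 0, 0.4, 1, 2, 4 and 6 hpf (from the newly fertilized egg through cleavage and the sphere stage to the shield stage, early in gastrulation), with 1 pooled profile per group. Both assays used poly(A) RNA from pools of whole embryos. A difference can therefore come from fewer cells that hold an RNA, from less of it per cell, or from a changed poly(A) tail. These cannot be told apart.

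Each RNA-seq library held 61776396 to 104388477 uniquely mapped reads. The morpholino blocks translation, so the RNA of elavl1a is no check of it; that RNA stood between 200.5 and 205 RPKM in all 4 morphant and control libraries of 4 hpf, and at 343 and 342 RPKM in morphants against 298 and 299 RPKM in controls at 6 hpf (RPKM, a read count scaled by transcript length and library size). The 2 libraries of a group lay very close, with a biological coefficient of variation of 0.0268, so that small differences passed the test. The p-values measure only the spread between these libraries. Absence of overlap between groups of 2 libraries is given below as a description. How often it occurred over all tested transcripts was not counted, so it is not read as a trait of the members. With scaling to the library total, the median transcript had a log2 change of -0.23 at 4 against 2 hpf and of -0.64 at 6 against 4 hpf in controls, and of 0.07 and 0.0075 in morphants against controls at 4 and 6 hpf. Changes are therefore also given relative to that median where this matters. Other RNAs moved with the morpholino as well, and their counts stand beside 39.5% higher and 22.9% lower among all 9945 tested transcripts at 4 hpf and 40.6% higher and 39.0% lower at 6 hpf. Summed over 8 maternal RNAs that embryos clear before gastrulation, the level was 1328 to 1333 RPKM in morphants against 1014 to 1027 RPKM in controls at 4 hpf, and 7 of 8 were called higher and 1 lower. Of 8 tested yolk syncytial layer markers 7 were called lower at 4 hpf and none higher, with sums of 106 to 108 RPKM in morphants against 195 RPKM in controls, and apoa4b.1 and apobb.1 unlisted in both. Of 8 enveloping layer markers 7 were called lower and 1 higher (667 to 669 RPKM in morphants against 1046 to 1057 RPKM in controls), and of 10 mesendoderm and notochord markers 6 were called lower and 1 higher (366 to 367 against 489 to 490 RPKM). At 6 hpf the sums in morphants and then in controls were 55.8 to 59.6 against 65.98 to 71.6 RPKM for the maternal RNAs (2 called higher, 3 lower, or 0 and 5 under TMM and DESeq2), 1434 to 1462 against 1270 to 1274 RPKM for the yolk syncytial layer (6 and 2, or 5 and 2 under TMM and 3 and 2 under DESeq2), 6361 to 6413 against 7134 to 7145 RPKM for the enveloping layer (2 and 5), and 1158 to 1166 against 936 to 944 RPKM for mesendoderm (7 and 3). Of 8 p53 response genes 6 were called higher and 0 lower at 4 hpf (6 and 1 under TMM and DESeq2), and 8 higher and 0 lower at 6 hpf (6 and 0 under both), with sums of 1000 RPKM in morphants against 930 to 948 RPKM in controls at 4 hpf, and of 914 to 917 RPKM in morphants against 819 to 822 RPKM in controls at 6 hpf. The paper reports that elavl1a morphants were moderately late in reaching the sphere stage and that their gastrulation was markedly delayed. The part of this delay and of these other RNAs in the chaperone results was not tested.

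**Figure D1:**
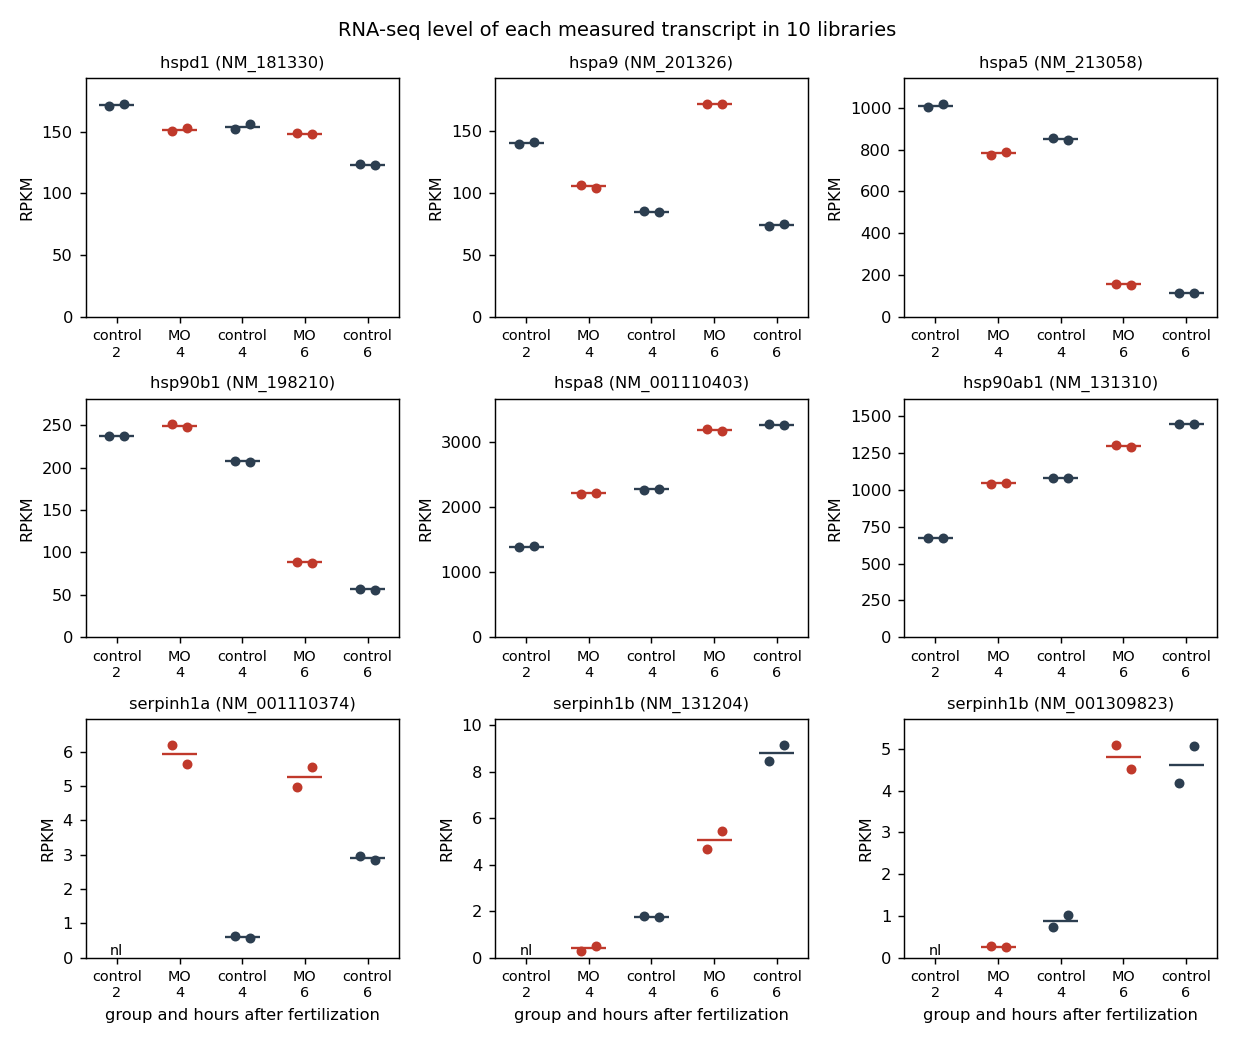
RNA-seq level (RPKM, linear axis from 0) of the 9 tested transcripts, with 1 point per library (n = 2 per group), bars at group means, elavl1a morphants (MO) in red and controls in dark grey; "nl" marks groups with no listed value. hspa8 and hsp90ab1 climb with stage, hspa5 and hsp90b1 drop at 6 hpf, and hspa9 is highest in the morphants at 6 hpf (172 RPKM in both libraries).

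In the RNA-seq, hspa9 was the constitutive chaperone that differed most between morphants and controls. Its level was 172 and 172 RPKM in morphants against 73.5 and 75.1 RPKM in controls at 6 hpf, and 107 and 104 RPKM in morphants against 85.2 and 84.7 RPKM in controls at 4 hpf. The libraries of the groups did not overlap at either stage, and at 6 hpf the morphants exceeded every control library of any stage, the highest of which held 141 RPKM at 2 hpf. The difference was 2.31-fold at 6 hpf (log2 change 1.23, SE 0.0189, edgeR adjusted p = 9.02e-22) and 1.24-fold at 4 hpf (log2 change 0.32, SE 0.0191, edgeR adjusted p = 1.95e-11). The change at 6 hpf lay above that of 93.2% of the tested transcripts. The morphant effect itself was larger at 6 than at 4 hpf, by 0.91 on the log2 scale (SE 0.0268, edgeR adjusted p = 6.42e-17).

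In controls hspa9 held 85.2 and 84.7 RPKM at 4 hpf against 139 and 141 RPKM at 2 hpf, a drop that passed the test (log2 change -0.73, SE 0.0187, edgeR adjusted p = 1.17e-18) and stayed at -0.50 relative to the median transcript. At 6 against 4 hpf its direction depended on the scaling: per library total hspa9 fell by 0.20 on the log2 scale (73.5 and 75.1 RPKM at 6 hpf), while relative to the median transcript its log2 change was 0.44. Under TMM and DESeq2 scaling its log2 change over that interval was 0.37 and 0.54.

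hspd1, the HSP60 chamber, was also higher in morphants at 6 hpf, by less than hspa9, and did not pass the test at 4 hpf. It stood at 149 and 148 RPKM in morphants against 124 and 123 RPKM in controls at 6 hpf, without overlap, a 1.203-fold difference (log2 change 0.27, SE 0.0185, edgeR adjusted p = 3.15e-11). At 4 hpf it stood at 151 and 153 RPKM in morphants against 152 and 156 RPKM in controls, and these libraries overlapped. That difference did not pass (log2 change -0.02, SE 0.0184, edgeR adjusted p = 0.287), although it did under TMM scaling (-0.10, adjusted p = 0.000301) and DESeq2 (-0.12, adjusted p = 2.15e-07). The 6 hpf effect exceeded the 4 hpf effect by 0.29 on the log2 scale (SE 0.0261, edgeR adjusted p = 2.78e-09). Among controls hspd1 was the steadiest of the constitutive members, at 171 and 172 RPKM at 2 hpf, 152 and 156 RPKM at 4 hpf, and 124 and 123 RPKM at 6 hpf. Both steps were called lower per library total (log2 changes -0.15 and -0.33), whereas relative to the median transcript they were 0.08 and 0.31, and under TMM and DESeq2 both were positive.

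hspe1, the lid of the HSP60 chamber, was barely captured by RNA-seq. Its RefSeq gene lies next to hspd1 on the same chromosome of the RefSeq assembly. Only the transcript NM_001328391 was listed, in 6 of 10 libraries, at 0.335 and 0.120 RPKM in morphants at 6 hpf, 0.125 RPKM in 1 morphant library at 4 hpf, 0.158 RPKM in 1 control library at 6 hpf, and 0.186 and 0.161 RPKM in controls at 2 hpf, with at most 12 unique reads per library. Of its reads 47.3% mapped to more than 1 place and were not among the unique reads. No test of hspe1 was made. In the icSHAPE profiles, by contrast, all 3 of its transcripts were listed in wild type at 0, 0.4, 1, 2 and 6 hpf at 11.5 to 22.7 RPKM, with values close together for the 3 transcripts of a stage, and none was listed in wild type at 4 hpf or in either morphant profile. The assays thus gave different pictures of hspe1. The paper filtered RNA-seq reads on mapping quality, and its icSHAPE methods state no such filter. The part of this filter and of multiply mapping reads in the difference was not tested.

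In the RNA-seq controls, the reticulum chaperones hspa5 and hsp90b1 were abundant at 2 and 4 hpf and much lower at 6 hpf. hspa5 (BiP) stood at 1003 and 1018 RPKM at 2 hpf, 855 and 848 RPKM at 4 hpf, and 113 and 116 RPKM at 6 hpf in controls. Among the members it ranked 2 by level at 2 hpf and 4 at 6 hpf, with no overlap between stages. The drop to 6 hpf was 7.46-fold (log2 change -2.92, SE 0.0161, edgeR adjusted p = 1.77e-29), and only 7.6% of the tested transcripts changed lower than that. The smaller 4 against 2 hpf difference (log2 change -0.24, SE 0.0145, edgeR adjusted p = 4.32e-12) was -0.0011 relative to the median transcript and turned to 0.0175 under TMM (adjusted p = 0.325) and 0.0682 under DESeq2 (adjusted p = 4.63e-05).

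The morphants held more hspa5 at 6 hpf but not at 4 hpf. The libraries held 158 and 154 RPKM in morphants against 113 and 116 RPKM in controls at 6 hpf, without overlap, a 1.36-fold difference (log2 change 0.46, SE 0.0161, edgeR adjusted p = 5.99e-16). At 4 hpf they held 776 and 787 RPKM in morphants against 855 and 848 RPKM in controls, again without overlap but lower in the morphants (log2 change -0.13, SE 0.0146, edgeR adjusted p = 3.12e-07). The 2 effects differed by 0.58 on the log2 scale (SE 0.0218, edgeR adjusted p = 3.05e-15).

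hsp90b1 (GRP94) followed hspa5 across control stages and differed from it in the morphants at 4 hpf. In controls it stood at 237 and 237 RPKM at 2 hpf, 208 and 206 RPKM at 4 hpf, and 56.4 and 56.2 RPKM at 6 hpf, a 3.68-fold drop over the last step (log2 change -1.92, SE 0.0177, edgeR adjusted p = 2.98e-26). The first step was -0.19 per library total but 0.05 relative to the median transcript, and positive under TMM and DESeq2. Morphants held 251 and 248 RPKM at 4 hpf against 208 and 206 RPKM in controls, and 89.1 and 87.5 RPKM at 6 hpf against 56.4 and 56.2 RPKM in controls. Both pairs were without overlap and higher in morphants, by 1.205-fold (log2 change 0.27, SE 0.0163, edgeR adjusted p = 2.43e-11) and 1.57-fold (log2 change 0.66, SE 0.0182, edgeR adjusted p = 8.81e-18), and the effects differed by 0.39 (SE 0.0244, edgeR adjusted p = 1.03e-11).

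The cytosolic chaperones rose with stage in controls and differed little between morphants and controls in the RNA-seq. hspa8 (HSC70) stood at 1385 and 1403 RPKM at 2 hpf, 2271 and 2287 RPKM at 4 hpf, and 3277 and 3270 RPKM at 6 hpf in controls. It was the most abundant member in every group, ranking between 4 and 13 among all listed transcripts, and its steps were 1.63-fold (log2 change 0.72, SE 0.00966, edgeR adjusted p = 2.0e-23) and 1.44-fold (log2 change 0.51, SE 0.00962, edgeR adjusted p = 2.75e-21). hsp90ab1 stood at 675 and 676 RPKM at 2 hpf, 1079 and 1080 RPKM at 4 hpf, and 1444 and 1444 RPKM at 6 hpf, with steps of 1.60-fold (log2 change 0.69, SE 0.0103, edgeR adjusted p = 1.41e-22) and 1.34-fold (log2 change 0.41, SE 0.0103, edgeR adjusted p = 3.63e-19). The stages did not overlap for either gene, and both rose under each scaling tried.

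Per library total these 2 genes differed between morphants and controls by at most 1.11-fold. Under TMM and DESeq2 the median transcript had a morphant log2 change at 6 hpf of -0.066 and -0.093 in place of 0.0075. Both genes then lay further below the controls. hspa8 held 3199 and 3177 RPKM in morphants against 3277 and 3270 RPKM in controls at 6 hpf, and 2205 and 2222 RPKM in morphants against 2271 and 2287 RPKM in controls at 4 hpf. The pairs did not overlap, and both differences, of -0.04 on the log2 scale, passed (edgeR adjusted p = 0.00186 and 0.00059). For hsp90ab1 the morphants held 1302 and 1290 RPKM against 1444 and 1444 RPKM in controls at 6 hpf, and 1042 and 1045 RPKM against 1079 and 1080 RPKM in controls at 4 hpf. These were also without overlap and lower in morphants (log2 change -0.15, SE 0.0102, edgeR adjusted p = 2.22e-11 at 6 hpf, and -0.05, SE 0.0103, edgeR adjusted p = 0.000266 at 4 hpf). The effect on hsp90ab1 differed between the stages by -0.10 (SE 0.0145, edgeR adjusted p = 2.26e-06), while for hspa8 the difference of 0.0072 (SE 0.0136) did not pass (edgeR adjusted p = 0.646).

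The HSP47 genes were the scarcest tested members, and they differed between morphants and controls in opposite directions at 4 hpf. serpinh1a held 6.21 and 5.66 RPKM (1345 and 1430 unique reads) in morphants against 0.634 and 0.570 RPKM (117 and 92 unique reads) in controls at 4 hpf. In mean RPKM it was thus 9.85-fold higher in morphants, without overlap. The log2 change of unique reads was 3.76 (SE 0.134, edgeR adjusted p = 2.31e-14), above that of 99.9% of the tested transcripts. Pooled over all libraries, 15.7% of the reads of serpinh1a mapped to more than 1 place, against at most 3.14% for the other tested members. Its level is the least certain of these. At 4 hpf such reads numbered 202 and 216 in morphants and 70 and 54 in controls, a larger share of the reads in controls. At 6 hpf serpinh1a held 4.97 and 5.56 RPKM in morphants against 2.96 and 2.85 RPKM in controls. This was still without overlap but only 1.81-fold higher in mean RPKM (log2 change of unique reads 0.96, SE 0.107, edgeR adjusted p = 9.56e-08). The effect at 6 minus that at 4 hpf was -2.80 on the log2 scale (SE 0.174, edgeR adjusted p = 2.42e-11). In controls serpinh1a was unlisted, meaning under 0.1 RPKM, at 2 hpf and at least 6.02-fold higher at 4 hpf. It was 4.83-fold higher in mean RPKM at 6 than at 4 hpf (log2 change of unique reads 2.62, SE 0.138, edgeR adjusted p = 4.28e-13).

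serpinh1b went the other way at 4 hpf in both of its transcripts. NM_131204 held 0.300 and 0.495 RPKM (32 and 59 unique reads) in morphants against 1.80 and 1.74 RPKM (247 and 212 unique reads) in controls, and NM_001309823 held 0.277 and 0.250 RPKM in morphants against 0.741 and 1.02 RPKM in controls. Neither pair overlapped. In mean RPKM the morphants were 4.44-fold lower for NM_131204 (log2 change of unique reads -2.31, SE 0.205, edgeR adjusted p = 1.17e-08). They were 3.35-fold lower for NM_001309823 (log2 change of unique reads -1.76, SE 0.261, edgeR adjusted p = 9.63e-06). At 6 hpf NM_131204 held 4.69 and 5.46 RPKM in morphants against 8.47 and 9.16 RPKM in controls, without overlap (log2 change -0.81, SE 0.13, edgeR adjusted p = 1.41e-05). NM_001309823 held 5.09 and 4.52 RPKM in morphants against 4.17 and 5.06 RPKM in controls, where the libraries overlapped and the test did not pass (log2 change 0.06, SE 0.16, edgeR adjusted p = 0.76). The effects at 6 and 4 hpf differed by 1.50 for NM_131204 (SE 0.249, edgeR adjusted p = 2.25e-05) and by 1.82 for NM_001309823 (SE 0.308, edgeR adjusted p = 2.9e-05).

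Both transcripts of serpinh1b were unlisted in controls at 2 hpf, like serpinh1a. Control levels at 4 hpf were at least 17.7-fold higher for NM_131204 and at least 8.83-fold higher for NM_001309823. A further step to 6 hpf passed for both (log2 changes 2.47 and 2.54, edgeR adjusted p = 2.23e-12 and 8.9e-11). The paper states that RNA-seq reads were mapped to RefSeq transcripts and filtered on mapping quality. How reads that match both of these 2 overlapping transcripts were counted is not stated further. The split between them is therefore uncertain, and the sum may lack reads that match both. That sum was 0.577 and 0.746 RPKM in morphants against 2.54 and 2.76 RPKM in controls at 4 hpf. At 6 hpf it was 9.78 and 9.97 RPKM in morphants against 12.6 and 14.2 RPKM in controls.

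**Figure D2:**
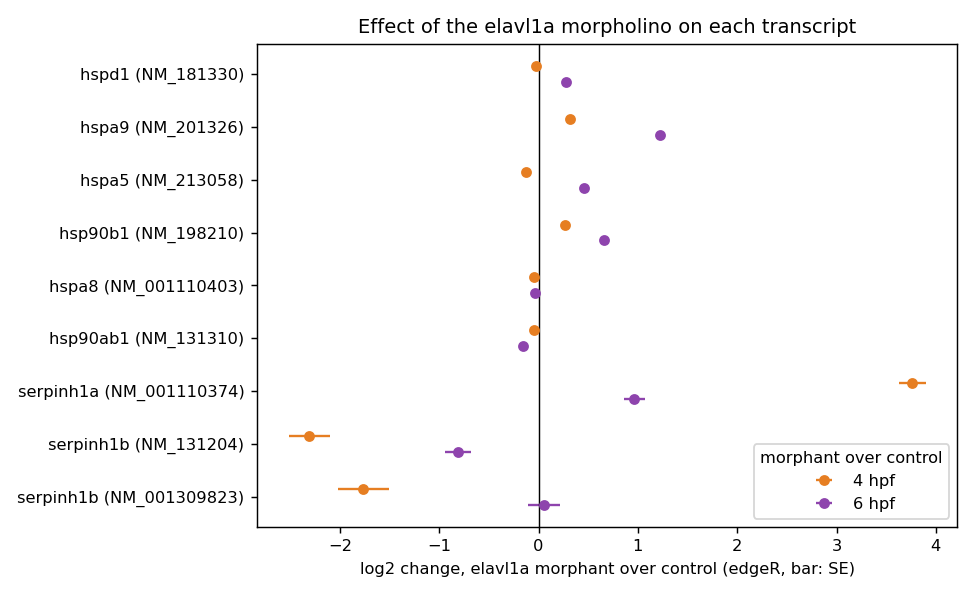
Log2 change of each tested transcript, elavl1a morphant over control, at 4 hpf (orange) and 6 hpf (purple), from the edgeR fit with bars of 1 SE (n = 2 libraries per group). The HSP47 genes spread widest at 4 hpf (3.76 for serpinh1a, -2.31 and -1.76 for serpinh1b), hspa9 reaches 1.23 at 6 hpf, and hspa8 stays at -0.04 at both stages.

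Counted over the 9 tested transcripts, 3 were called higher and 5 lower in morphants at 4 hpf, where 39.5% of all tested transcripts were called higher and 22.9% lower. At 6 hpf 5 were called higher and 3 lower, beside 40.6% higher and 39.0% lower among all. The effect differed between the stages in 8 transcripts, upward in 6 and downward in 2, beside 35.3% and 38.8% of all tested transcripts. In controls all 9 were called at each step, 5 higher and 4 lower at 4 against 2 hpf (28.2% and 55.0% of all, or 7 and 1 under TMM, 8 and 1 under DESeq2) and again 5 and 4 at 6 against 4 hpf (30.1% and 63.0% of all, or 7 and 2 under both). With calls this frequent, the counts of members carry little beyond the background, and the sizes above are the measurement. The control steps share the 4 hpf libraries, and the morphant comparisons and their difference share libraries too. Under TMM and DESeq2 scaling the split of the calls over all transcripts between higher and lower changed: 4150 and 3843 (TMM) or 4334 and 3429 (DESeq2) in place of 2808 and 5473 from 2 to 4 hpf, 4382 and 4712 or 4788 and 4226 in place of 2994 and 6267 from 4 to 6 hpf, 2977 and 3076 or 2573 and 3163 in place of 3933 and 2278 for the morphants at 4 hpf, and 3620 and 4286 or 3408 and 4375 in place of 4040 and 3878 for the morphants at 6 hpf.

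The order of the members by level changed with stage. At 2 hpf controls ran hspa8, hspa5, hsp90ab1, hsp90b1, hspd1 and hspa9 from high to low, and at 6 hpf hspa8, hsp90ab1, hspd1, hspa5, hspa9 and hsp90b1. In morphants at 6 hpf hspa9 ranked 3, above hspa5 and hspd1. Neighbouring members in these orders were further apart than their library pairs, except that serpinh1a and both serpinh1b transcripts overlapped in morphants at 6 hpf, where serpinh1a held 4.97 and 5.56 RPKM and NM_131204 held 4.69 and 5.46 RPKM.

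Across the 5 RNA-seq group means, the cytosolic pair hspa8 and hsp90ab1 had a Pearson r of 0.99 and the reticulum pair hspa5 and hsp90b1 an r of 0.98, while the mitochondrial pair hspd1 and hspa9 had 0.59. With 5 points from shared libraries these are descriptions. Over 6429 candidate transcripts, the closest in pattern were nedd8 and ruvbl1 for hspa9 (r of 0.996 and 0.995), gpat2 and vars1 for hspd1, ube2r2 and zp3f.1 for hspa5, dpm1 and alg3 for hsp90b1, kpna4 and tesca for hspa8, tagln2 for hsp90ab1, aqr for serpinh1b NM_001309823 and insb for NM_131204 among those with a symbol. The counts of candidates with an r above 0.99 varied from 360 for hspa5 and 130 for hsp90b1 to 21 for hspd1 and 6 for hspa9. serpinh1a had none, its nearest being tmem50a at 0.98.

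Among related genes outside the 9, the folding machinery of the endoplasmic reticulum was mostly higher in morphants at 4 hpf, where hspa5 was lower. Of 31 tested genes 25 were called higher and 4 lower in morphants at 4 hpf (median log2 change 0.33, all transcripts 0.07), and 11 higher and 17 lower at 6 hpf (median -0.18). Among all tested transcripts 39.5% were called higher and 22.9% lower at 4 hpf, and 40.6% and 39.0% at 6 hpf. creld2, a disulfide isomerase-type protein induced by reticulum stress, held 32.8 and 33.5 RPKM in morphants against 15.1 and 14.6 RPKM in controls at 4 hpf (log2 change 1.24, edgeR adjusted p = 3.59e-13). ero1b, which oxidizes disulfide isomerases, was higher at both stages (log2 change 0.69 at 4 hpf and 1.58 at 6 hpf), and atf6, a sensor of the unfolded protein response, held 21.3 and 21.2 RPKM in morphants against 9.28 and 8.17 RPKM in controls at 6 hpf (log2 change 1.36, edgeR adjusted p = 1.31e-12). In controls 8 of the 31 rose and 19 fell at 4 against 2 hpf (13 and 15 under TMM and DESeq2), and 8 rose and 22 fell at 6 against 4 hpf. Over all tested transcripts 28.2% rose and 55.0% fell at the first step, and 30.1% and 63.0% at the second. Under TMM and DESeq2 the 4 hpf morphant count remained 23 and 21 higher with 4 lower.

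Of 8 tested mitochondrial folding genes, 4 were called higher and 2 lower in morphants at 4 hpf and 4 higher and 3 lower at 6 hpf, with medians of 0.07 and 0.0176 beside 0.07 and 0.0075 for all transcripts, and 2 higher and 2 lower at 4 hpf under TMM and DESeq2. These counts stand beside 39.5% higher and 22.9% lower among all tested transcripts at 4 hpf, and 40.6% and 39.0% at 6 hpf. trap1, the mitochondrial HSP90, held 27.5 and 26.7 RPKM in morphants against 16.2 and 15.6 RPKM in controls at 6 hpf (log2 change 0.79, edgeR adjusted p = 9.67e-13). grpel2, a nucleotide exchange factor of hspa9, was lower at both stages (42.6 and 45.9 RPKM in morphants against 72.1 and 73.6 RPKM in controls at 6 hpf, log2 change -0.74, and -0.54 at 4 hpf). dnaja3a, a mitochondrial J-protein that works with hspa9, was higher at 4 hpf by 0.50 on the log2 scale. In controls none of the 8 rose and 7 fell at 4 against 2 hpf (1 and 4 under TMM, 2 and 3 under DESeq2), and 1 rose and 7 fell at 6 against 4 hpf. All tested transcripts had 28.2% higher and 55.0% lower at the first step, and 30.1% and 63.0% at the second.

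Of 27 tested cytosolic HSP70, HSP90 and co-chaperone genes, 11 were called higher and 8 lower in morphants at 4 hpf, and 20 higher and 3 lower at 6 hpf (median log2 change 0.26, all transcripts 0.0075). The shares over all tested transcripts were 39.5% higher and 22.9% lower at 4 hpf, and 40.6% and 39.0% at 6 hpf. At 6 hpf TMM gave 17 higher and 4 lower and DESeq2 16 and 5, while at 4 hpf both turned the balance, to 6 higher with 11 or 12 lower. hsp90aa1.2, an inducible HSP90 alpha, held 14.9 and 15.2 RPKM in morphants against 34.1 and 33.8 RPKM in controls at 4 hpf (log2 change -1.26, edgeR adjusted p = 2.53e-17), and 175 and 175 RPKM against 107 and 103 RPKM at 6 hpf. The largest changes at 6 hpf were those of hspbp1, an exchange factor of HSP70 (1.26), and unc45a, a co-chaperone of HSP90 and myosin (1.19), and ahsa1a, an activator of HSP90, was lower at 4 hpf (-0.78). In controls 13 rose and 12 fell at 4 against 2 hpf (16 and 7 under TMM, 18 and 6 under DESeq2), and 10 rose and 16 fell at 6 against 4 hpf, a balance that turned to 14 and 10 under TMM and 14 and 8 under DESeq2. Per library total, 28.2% of all tested transcripts rose and 55.0% fell at the first step, and 30.1% and 63.0% at the second.

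Of the 17 heat-inducible genes 7 were tested. None was called higher and 4 were called lower in morphants at 4 hpf, and 3 higher and 2 lower at 6 hpf (2 and 3 under TMM and DESeq2). Their median log2 changes were -0.18 and 0.10, beside 0.07 and 0.0075 for all tested transcripts, of which 39.5% were called higher and 22.9% lower at 4 hpf and 40.6% and 39.0% at 6 hpf. hsp70.3 held 52.1 and 52.9 RPKM in morphants against 16.7 and 16.8 RPKM in controls at 6 hpf (log2 change 1.69, edgeR adjusted p = 1.51e-17). hsp70l held 6.47 and 6.40 RPKM in morphants against 2.75 and 2.48 RPKM in controls at 6 hpf (1.34), and was lower at 4 hpf (-0.52). The small heat shock gene hspb1 was lower at 4 hpf, at 244 and 243 RPKM in morphants against 417 and 422 RPKM in controls (-0.79). In controls 6 of the 7 rose and none fell at 4 against 2 hpf, and 4 rose and 2 fell at 6 against 4 hpf (5 and 0 under TMM, 6 and 0 under DESeq2). Of all tested transcripts 28.2% rose and 55.0% fell at the first step, and 30.1% and 63.0% at the second.

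Of 13 tested subunits of TRiC, the cytosolic chaperonin, and of prefoldin, which passes substrates to it, 2 were called higher and 8 lower in morphants at 4 hpf, and 9 higher and 3 lower at 6 hpf (5 and 3 under TMM and DESeq2). Their medians were -0.13 and 0.11 on the log2 scale, against 0.07 and 0.0075 for all transcripts tested (39.5% higher and 22.9% lower at 4 hpf, 40.6% and 39.0% at 6 hpf). cct4 held 62.6 and 66.1 RPKM in morphants against 114 and 114 RPKM in controls at 4 hpf (log2 change -0.84, edgeR adjusted p = 9.7e-16), and the log2 change of tcp1 was -0.41. cct5 held 117 and 117 RPKM in morphants against 60.0 and 58.5 RPKM in controls at 6 hpf (log2 change 1.00, edgeR adjusted p = 1.6e-17), and the prefoldin subunit pfdn1 was lower (-0.58). In controls 9 rose and 3 fell at 4 against 2 hpf, and 5 rose and 6 fell at 6 against 4 hpf, which turned to 12 and 1 under both TMM and DESeq2. Per library total, all tested transcripts had 28.2% higher and 55.0% lower at the first step, and 30.1% and 63.0% at the second.

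Of 12 tested collagen and collagen-folding genes, whose products meet HSP47, 3 were called higher and 5 lower in morphants at 4 hpf, and 1 higher and 5 lower at 6 hpf. The list had median log2 changes of -0.07 and -0.13, all tested transcripts 0.07 and 0.0075, with 39.5% called higher and 22.9% lower at 4 hpf and 40.6% and 39.0% at 6 hpf. p4ha2, a collagen prolyl hydroxylase subunit, held 0.998 and 1.05 RPKM in morphants against 3.22 and 3.35 RPKM in controls at 4 hpf (log2 change -1.78, edgeR adjusted p = 6.53e-11), in the direction of serpinh1b. crtap, a partner of the prolyl 3-hydroxylase, was lower at 4 hpf (-1.43), p4ha1a was higher at 6 hpf (1.19) and the prolyl isomerase fkbp7 lower (-0.87). In controls 7 rose and 4 fell at 4 against 2 hpf, and 6 rose and 5 fell at 6 against 4 hpf. Among all tested transcripts 28.2% rose and 55.0% fell at the first step, and 30.1% and 63.0% at the second.

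The icSHAPE profiles also give a level for each transcript, in RPKM of their own libraries, and extend the record back to the fertilized egg. These values come from 1 profile per stage, with no replicate check, and their scale is not that of the RNA-seq. hspa5 stood out, at 47.0, 93.7, 192, 479, 550 and 63.7 RPKM in wild type at 0, 0.4, 1, 2, 4 and 6 hpf. Its level at 4 hpf was 11.7 times that in the egg, beside a median of 1.21 over 6361 transcripts, of which 0.535% had a larger ratio. Most of the increase, to 479 RPKM, was present by 2 hpf, before the embryo's own genome is broadly active. The paper states that poly(A) tails of maternal RNA are short after fertilization and lengthen during cleavage. The part of tail length in these poly(A) libraries was not tested, so a higher value need not mean more RNA.

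The other members increased less over the same stages. From 0 to 4 hpf hspa9 ran 41.8, 62.8, 114, 148 and 141 RPKM and hsp90b1 62.5, 84.2, 140, 192 and 210 RPKM, ratios of 3.38 and 3.36 between the ends. hsp90ab1 ran 311, 351, 466, 575 and 684 RPKM, and hspd1 108, 98.6, 116, 150 and 133 RPKM. hspa8 was already at 1302 RPKM in the egg and at 1558 RPKM at 4 hpf, a ratio of 1.197. From 2 to 4 hpf the profiles did not all repeat the RNA-seq controls. hspa9 was 0.956-fold in the profiles (median transcript 0.964) and 0.605-fold in the RNA-seq. hspa5 and hsp90b1 were higher at 4 hpf in the profiles, but lower per library total in the RNA-seq, where scaling changed their direction. hspa8 rose 1.14-fold against 1.63-fold in the RNA-seq, and hsp90ab1 also rose by less. hspd1 fell in both, to 0.887-fold and 0.897-fold. From 4 to 6 hpf the profiles repeated the split seen in the RNA-seq controls: 63.7 RPKM at 6 hpf against 550 RPKM at 4 hpf for hspa5, 52.4 against 210 RPKM for hsp90b1, 2971 against 1558 RPKM for hspa8 and 1087 against 684 RPKM for hsp90ab1.

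**Figure D3:**
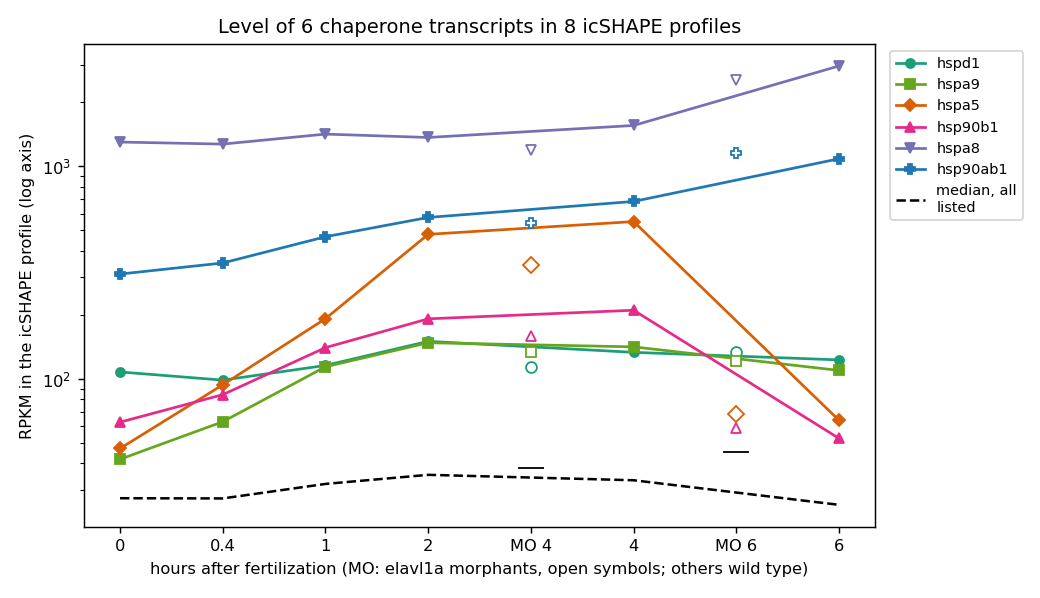
Level of 6 members in the 8 icSHAPE profiles (RPKM, log axis), lines and filled symbols for wild type, open symbols for elavl1a morphants (MO), 1 pooled profile per point, with the median of all listed transcripts dashed. hspa5 climbs to 550 RPKM at 4 hpf and stands at 63.7 RPKM at 6 hpf.

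In the morphant icSHAPE profiles the members did not all repeat the RNA-seq. hspa5 held 345 RPKM in morphants against 550 RPKM in wild type at 4 hpf, and 68.2 against 63.7 RPKM at 6 hpf. At 4 hpf it was lower as in the RNA-seq but by more. Its ratio there was 0.627-fold, which 98.4% of transcripts exceeded, where the RNA-seq gave 0.918-fold. hsp90b1 held 160 RPKM in morphants against 210 RPKM in wild type at 4 hpf, the opposite side from the RNA-seq, and 58.4 against 52.4 RPKM at 6 hpf. hspa9 held 134 RPKM in morphants against 141 RPKM in wild type at 4 hpf and 121 against 109 RPKM at 6 hpf, a 1.11-fold ratio where the RNA-seq gave 2.31-fold. hspa8 held 1193 RPKM in morphants against 1558 RPKM in wild type at 4 hpf, a 0.765-fold ratio that 88.8% of transcripts exceeded, and 2543 against 2971 RPKM at 6 hpf. hsp90ab1 held 544 RPKM in morphants against 684 RPKM in wild type at 4 hpf (0.796-fold) and 1158 against 1087 RPKM at 6 hpf. hspd1 held 113 RPKM in morphants against 133 RPKM in wild type at 4 hpf, and 134 against 123 RPKM at 6 hpf. serpinh1a was unlisted in all 8 profiles, and serpinh1b was listed at 6 hpf alone, where its transcripts stood at 62.2 and 61.6 RPKM in morphants against 34.3 and 33.7 RPKM in wild type. These ratios of 1.82-fold and 1.83-fold were exceeded by 0.558% and 0.512% of 4300 transcripts. They were the reverse of NM_131204 and of the summed serpinh1b level in the RNA-seq. The 2 serpinh1b transcripts had near-equal values in each profile, so these values are read for the gene rather than for a transcript.

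Reactivity (a fraction from 0, protected or paired, to 1, flexible) was compared where both profiles gave a value to more than 50% of a transcript's nucleotides. The 6 abundant members hspd1, hspa9, hspa5, hsp90b1, hspa8 and hsp90ab1 met this in all 8 profiles, with values at 95.4% to 98.8% of their nucleotides. Their mean reactivity moved together, and with the transcriptome. It was higher at 0.4 than at 0 hpf in 6 of 6 (mean change 0.0411 ± 0.0159, SD over members, n = 6, against 0.0450 over 3835 transcripts), lower at 1 than at 0.4 hpf in 6 of 6 (-0.0700 ± 0.00656 against -0.0620), lower again at 2 hpf in 6 of 6 (-0.0235 ± 0.00716 against -0.0293), and higher at 4 hpf in 6 of 6 (0.0523 ± 0.0105 against 0.0466). From 4 to 6 hpf 4 of 6 were higher and the mean change was 0.00604 ± 0.0163 (-0.00036 over all transcripts). Centred on the median transcript, the member means of the first 4 intervals were -0.0055, -0.0062, 0.0056 and 0.0045, each within 1 SD of the members' changes.

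**Figure D4:**
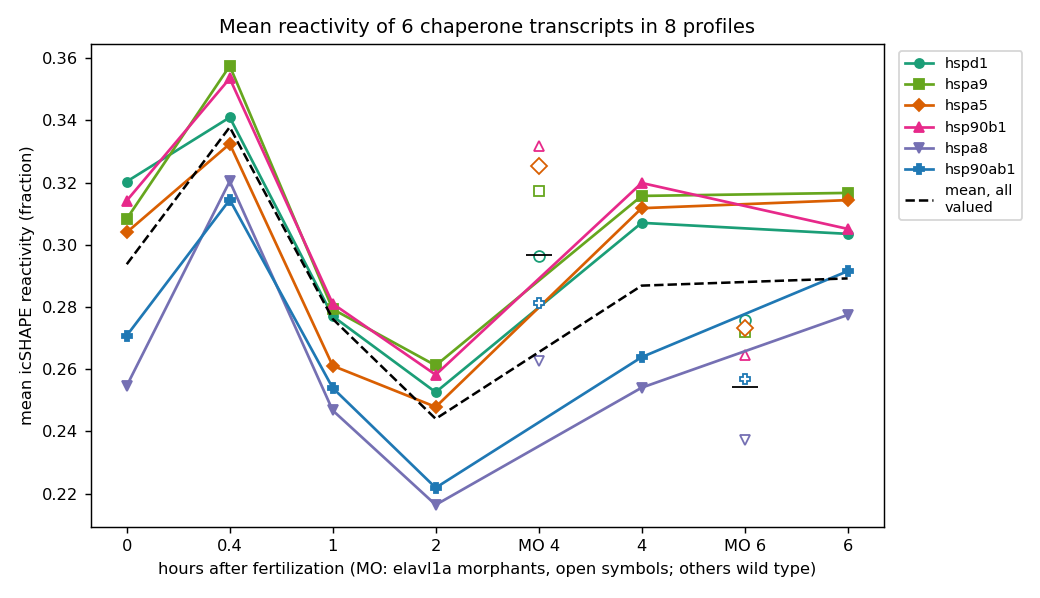
Mean icSHAPE reactivity (fraction) of 6 members in the 8 profiles, lines and filled symbols for wild type, open symbols for elavl1a morphants (MO), with the mean of all valued transcripts dashed; 1 pooled profile per point. All 6 follow the dashed line up at 0.4 hpf and down to 2 hpf, and hspa8 and hsp90ab1 lie below it there (0.216 and 0.222 against 0.244).

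Among the 6 abundant members the cytosolic pair was the least reactive. hspa8 had means of 0.255, 0.320, 0.247, 0.216, 0.254 and 0.277 at 0, 0.4, 1, 2, 4 and 6 hpf, and hsp90ab1 0.271, 0.314, 0.254, 0.222, 0.264 and 0.292. Of all valued transcripts only 6.22% were lower than hspa8 at 0 hpf and 9.01% at 4 hpf, and 29.1% at 6 hpf. Transcripts of at least 300 RPKM averaged 0.294 at 0 hpf and 0.282 at 4 hpf, above hspa8 at both. At 6 against 4 hpf the change was 0.0234 for hspa8, 0.0276 for hsp90ab1 and -0.0148 for hsp90b1.

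The reticulum and mitochondrial members lay above the transcript mean at most stages. At 4 hpf in wild type hsp90b1 averaged 0.320, hspa9 0.316, hspa5 0.312 and hspd1 0.307, against 0.287 for all transcripts, and 92.0% of transcripts were lower than hsp90b1. At 0 hpf hspd1 was the highest of the 6, at 0.320 (89.5% of transcripts lower), and at 6 hpf hspa9 was, at 0.317. Among the scarcer members, serpinh1b averaged 0.265 and 0.264 for its 2 transcripts and hspe1 0.237 to 0.260 for its 3 at 6 hpf in wild type, below most transcripts.

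Nucleotide by nucleotide, the share of positions that changed by more than 0.2 was smaller in hspa8 and hsp90ab1 than in the transcriptome at each step. It was 18.4% and 18.6% from 0 to 0.4 hpf (27.8% over all transcripts), 15.0% and 16.2% from 0.4 to 1 hpf (26.1%), 7.39% and 6.65% from 1 to 2 hpf (16.4%), 7.74% and 7.98% from 2 to 4 hpf (23.1%), and 5.22% and 5.89% from 4 to 6 hpf (18.8%). The other 4 lay closer to the transcriptome in the first 2 steps, between 27.5% and 31.3% and then between 23.8% and 27.5%, and below it later, down to 4.00% for hspa5 from 1 to 2 hpf. The share moved with level as well. Between 1 and 2 hpf the median correlation of the profiles across nucleotides was 0.929 over transcripts of at least 300 RPKM and 0.856 over all transcripts, and hspa5, at 479 RPKM by then, had 0.960. There hspa8 and hsp90ab1 had 0.935 and 0.941, and from 4 to 6 hpf 0.943 and 0.935 beside 0.936 over the transcripts of at least 300 RPKM. In the other intervals, in order, they had 0.876 and 0.844 (0.816), 0.902 and 0.885 (0.854), and 0.933 and 0.928 (0.900).

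Parts of single transcripts departed from the general course. The segments below were picked for this from all segments and intervals of the abundant members. Their percentages are therefore those of picked values and carry no test. In the 3′-most of 5 equal segments of hspd1 (nucleotides 2184 to 2728), reactivity was 0.406, 0.354, 0.331, 0.303, 0.327 and 0.320 at 0, 0.4, 1, 2, 4 and 6 hpf. It was thus lower at 0.4 than at 0 hpf by 0.0518 when the transcriptome rose in that segment by 0.0351 on average, and 1.55% of 3746 transcripts were lower in this change. The other 4 segments of hspd1 rose by 0.0133 to 0.0531. hspa5 in its 4th segment (nucleotides 1405 to 1872) had 0.347, 0.402, 0.266, 0.248, 0.347 and 0.363 over the same stages. Its change of -0.136 at 1 against 0.4 hpf was undercut by 0.416% of 3849 transcripts, and its gain from 2 to 4 hpf, of 0.0989, exceeded that of 99.1% of transcripts.

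**Figure D5:**
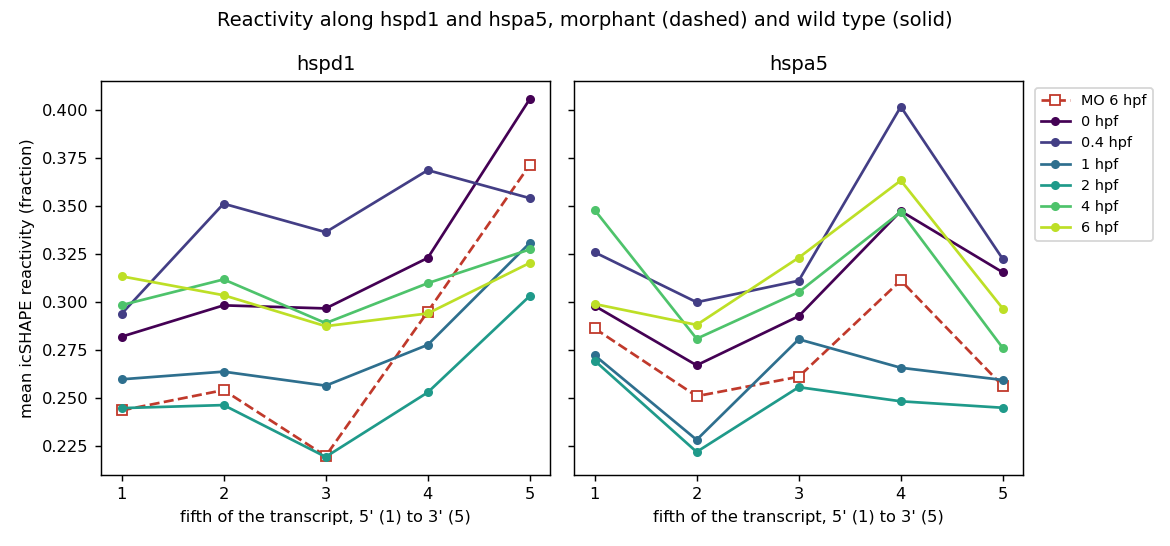
Mean icSHAPE reactivity (fraction) in 5 equal segments of hspd1 (left) and hspa5 (right), 5′ to 3′, with the elavl1a morphant profile at 6 hpf dashed and wild-type profiles at 0 to 6 hpf solid; 1 pooled profile per line. The 3′-most segment of hspd1 is highest in the egg (0.406), and stands at 0.372 in morphants against 0.320 in wild type at 6 hpf.

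Among windows of 10 nucleotides, the largest stage changes lay at different places in each transcript. Nucleotides 1531 to 1540 of hspd1 averaged 0.702 at 0.4 hpf against 0.293 at 0 hpf. Nucleotides 2971 to 2980 of hspa9 averaged 0.087 at 1 hpf against 0.558 at 0.4 hpf. Near its 5′ end, nucleotides 11 to 20 of hspa8 ran 0.137, 0.345, 0.286, 0.213, 0.259 and 0.638 over the 6 wild-type stages. These windows were picked for their size and carry no test.

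In morphants at 6 hpf the members were less reactive than in wild type, again like the transcriptome. The mean change was -0.0328 ± 0.0152 (SD over 7 genes, serpinh1b included; none higher) against -0.0387 over 3327 transcripts, of which 2.25% were higher. At 4 hpf it was 0.00701 ± 0.0102 (5 of 6 genes higher) against 0.00246. Single means at 6 hpf were 0.276 in morphants against 0.303 in wild type for hspd1, 0.272 against 0.317 for hspa9, 0.273 against 0.314 for hspa5 and 0.237 against 0.277 for hspa8. The share of nucleotides that differed by more than 0.2 at 6 hpf was 17.3% in hspa8 and 18.9% in hsp90ab1, 27.2% to 33.0% in the other 4 and 38.3% and 39.9% in the serpinh1b transcripts, beside 31.0% over all transcripts. At 4 hpf all 6 members lay between 7.53% and 16.9%, beside 22.7% over all transcripts. The morphant and wild-type profiles of 6 hpf were also less alike than any other compared pair. Their median correlation across nucleotides was 0.659, and 0.787 over transcripts of at least 300 RPKM. The morphant profile of 6 hpf listed 4303 transcripts and the wild-type profile 6996. With 1 pooled profile per group, effects of the morpholino and of the library set cannot be told apart.

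Against this general loss, the 3′-most segment of hspd1 was more reactive in morphants at 6 hpf, at 0.372 against 0.320 in wild type, where 70.5% of transcripts were lower in that segment. This segment too was picked and carries no test. hspa8 showed the largest single window difference of any member, at its 5′ nucleotides 11 to 20, with 0.122 in morphants against 0.638 in wild type at 6 hpf. Morphants also had 0.190 there at 4 hpf against 0.259 in wild type, and the wild-type value at 6 hpf was the one that stood apart.

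The windows that differed most at 4 hpf were also read at 6 hpf. hspd1 nucleotides 1651 to 1660 averaged 0.558 in morphants against 0.295 in wild type, hspa9 nucleotides 2201 to 2210 0.423 in morphants against 0.216 in wild type, and hspa5 nucleotides 2111 to 2120 0.662 in morphants against 0.382 in wild type. hsp90b1 nucleotides 2601 to 2610 averaged 0.564 in morphants against 0.154 in wild type, hspa8 nucleotides 2271 to 2280 0.474 in morphants against 0.284 in wild type, and hsp90ab1 nucleotides 1481 to 1490 0.374 in morphants against 0.410 in wild type. Windows chosen in the same way over other transcripts were not read, so these values are a description without a test. A trait shared by the libraries of both morphant profiles would also show at both stages, and it cannot be told apart from the morpholino here.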

How the data were processed

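Poly(A) RNA-seq libraries (10) and icSHAPE profiles (8) of zebrafish embryos were used, and the iCLIP files were not used here. The RNA-seq files hold counts of unique and multiple reads per RefSeq transcript with RPKM, as the authors deposited them, and transcripts under 0.1 RPKM are not listed. The deposited icSHAPE files hold, per transcript, an RPKM and a reactivity fraction per nucleotide that the authors computed from NAI-N3 libraries corrected with DMSO libraries, replicates pooled. Per the submitters' processing notes, reads were trimmed with cutadapt and Trimmomatic and mapped with Bowtie2. The paper states that RNA-seq reads were mapped to RefSeq transcripts and filtered on mapping quality before counting. The part of this filter in the levels of hspe1 and serpinh1b, which have several RefSeq transcripts, was not tested.

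Unique read counts were fitted with edgeR 4.0.16 (R 4.3.3) by the quasi-likelihood F test, with all 5 groups of 2 libraries in 1 fit, library totals as scaling and transcripts averaging at least 1 RPKM (9945). Log2 changes carry the SE from that F. Fold differences are ratios of mean RPKM, which includes reads that map to more than 1 place, while log2 changes use unique reads only. Calls are at a Benjamini-Hochberg adjusted p under 0.05 over all tested transcripts. Alternatives used TMM, DESeq2 1.42.0, limma 3.58.1 on log2(RPKM + 1) and log2(RPKM + 0.1), no filter, a replicate block and each library left out. The script was tested on simulated data. icSHAPE has 1 profile per stage, so no test was made; a change is that of the mean reactivity, and a nucleotide counts as changed past 0.2. Correlations, windows of 10 nucleotides (at least 8 valued) and 5 segments used python 3.11.15, numpy 2.4.6, pandas 2.3.3 and scipy 1.17.1, and figures matplotlib 3.10.9.

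Every transcript of the 9 genes is described. From each gene list (mitochondrial, cytosolic, heat-inducible, reticulum, TRiC and prefoldin, collagen) at most the 2 called genes with the largest change in each morphant comparison are named, with 1 transcript per gene. Members, lists and markers were chosen with earlier results of these data known, among them the rise of serpinh1a in morphants, which is therefore no independent support. Gene symbols were matched through RefSeq. The replicate numbers did not pair the libraries: correlations of their deviations were between -0.0429 and 0.0751. Replicates of a group differed beyond sampling noise, with chi-square per degree of freedom of 3.21 to 4.50. Among tested members, counting error was largest for serpinh1b in morphants at 4 hpf (30 to 59 unique reads).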

Additional observations from a re-analysis of the deposited data

Results flagged for a closer look

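The effect of the elavl1a morpholino differed between 6 and 4 hpf by a direct test of that difference (edgeR, n = 2 libraries per group) in 8 of the 9 tested transcripts. On the log2 scale the effect at 6 minus that at 4 hpf was -2.80 for serpinh1a, 1.82 and 1.50 for the serpinh1b transcripts NM_001309823 and NM_131204, and -0.10 for hsp90ab1. It was 0.91 for hspa9, 0.58 for hspa5, 0.39 for hsp90b1 and 0.29 for hspd1. With 35.3% and 38.8% of all tested transcripts called in either direction, such differences were common in these libraries.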

How the results depend on the processing

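The number of members called changed little under the alternatives: leaving out each library gave 9 to 9 calls for both control steps and 8 to 8 for the morphant comparisons and their difference, and no single call was lost. Directions in the control steps depended on scaling. From 2 to 4 hpf 5 higher and 4 lower became 7 and 1 under TMM and 8 and 1 under DESeq2. From 4 to 6 hpf 5 and 4 became 7 and 2 under both. TMM gave 8 in place of 9 calls from 2 to 4 hpf (hspa5 lost), and 9 in place of 8 in morphants at 4 hpf (hspd1 gained). The replicate block gave the same counts of 9, 9, 8, 8 and 8, so pairing by number changed no count. Reads that map to more than 1 place, added after seeing the data, changed no call.

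Scaling turned small control-stage changes. Under TMM and DESeq2 the log2 change from 2 to 4 hpf was 0.10 and 0.15 for hspd1, 0.0175 and 0.0682 for hspa5, and 0.0663 and 0.117 for hsp90b1, and from 4 to 6 hpf 0.24 and 0.41 for hspd1 and 0.37 and 0.54 for hspa9. For serpinh1b NM_001309823 at 6 hpf the morphant change was -0.0188 and -0.0485 (-0.0712 to 0.189 with a library left out), and for hspa8 the difference between stages was -0.000998 under DESeq2 (-0.000729 to 0.0151 with a library left out); neither passes in any of these fits.

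Mean reactivity changes moved by more than 1 SD over members with the median nucleotide in place of the mean (0.0579, -0.0953, -0.0358 and 0.0778 for the first 4 intervals, -0.0506 for morphants at 6 hpf). Centring on the median change of all transcripts took away nearly all of them: -0.0055 from 0 to 0.4 hpf, -0.0062 from 0.4 to 1, 0.0056 from 1 to 2, 0.0045 from 2 to 4, and 0.0061 for morphants at 6 hpf. Single profiles per stage limit every reactivity value, and low counts limit serpinh1a, serpinh1b and hspe1.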
